A study of Mus musculus with 38 samples.

Results

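Left ventricular transcriptomes of vehicle-treated mice that model heart failure in which ejection fraction is preserved (HFpEF+Veh, n = 8) were compared with those of healthy hearts (non_failing, n = 8), which together are 16 of the 38 libraries of the series, chosen by sample title. All mice were wild type, of the strain labelled C57BL6 (C57BL/6J in the study's methods), and gave 1 library each. HFpEF+Veh mice ate a high-fat diet, received L-NAME, which blocks nitric oxide synthesis, and took oral vehicle after the disease was established. The non_failing mice, fed standard chow per the study's methods, also carry the treatment label Vehicle, so that diet and L-NAME separate the groups together and cannot be told apart. The other 22 libraries come from mice of the same model that took TYA-018, an inhibitor of HDAC6 (n = 11), or an SGLT2 inhibitor (n = 11). The labels describe the mice as female, while 4 of 4 Y-linked genes examined had counts in all 16 libraries.

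In HFpEF the ventricle fills poorly although its pumped fraction is kept, and obesity and high blood pressure are common companions. Heart muscle burns mainly fatty acids, which are carried into mitochondria as carnitine esters, and it also uses glucose, ketone bodies and branched chain amino acids. The fatty acid sensor PPARA is a nuclear receptor that switches on genes of fat uptake, storage and oxidation. Cardiomyocytes under mechanical load are known to raise fetal and stretch-responsive genes, and fibroblasts to lay down matrix.

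Libraries held 27.2 to 48.3 M estimated counts in non_failing and 25.6 to 57.7 M in HFpEF+Veh, with a difference in means of 0.25 M (exact permutation test, two-sided p = 0.945, adjusted over 2 measures 0.945). Levels are given as CPM, counts scaled to a common library total after TMM normalisation, as the lowest, median and highest library of a group. They are compared within a gene, since CPM does not correct for gene length. In this homogenized tissue, fewer cells of a type and less RNA per cell cannot be told apart.

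A single HFpEF+Veh library, V2523, stood apart for transcripts of liver. The summed level of 26 hepatocyte markers was 3699 CPM in V2523 and 6.23 to 75.1 CPM in the other vehicle hearts, and each of the 26 was highest in V2523 among vehicle libraries. The non_failing libraries also carried these markers, at 52.7 to 724 CPM with a median of 119 CPM. Thus Alb, albumin, reached 1141 CPM in V2523, had a median of 1.72 CPM in the other 7 vehicle libraries, and ranged from 14.1 to 237 CPM in non_failing. Another vehicle library, V2532, held transcripts of fast skeletal muscle. Myh4, a fast myosin heavy chain, had 69.3 CPM there and was at 0 CPM in the other vehicle libraries. Atp2a1, the fast muscle calcium pump, reached 29.3 CPM in V2532 and at most 0.381 CPM in the others. Of 20 fast muscle markers, 10 were at least 4-fold above every other vehicle library in V2532, and 0 were so in V2523. These levels were scaled by library size. V2532 was also the most deeply sequenced library of both groups.

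**Figure D1:**
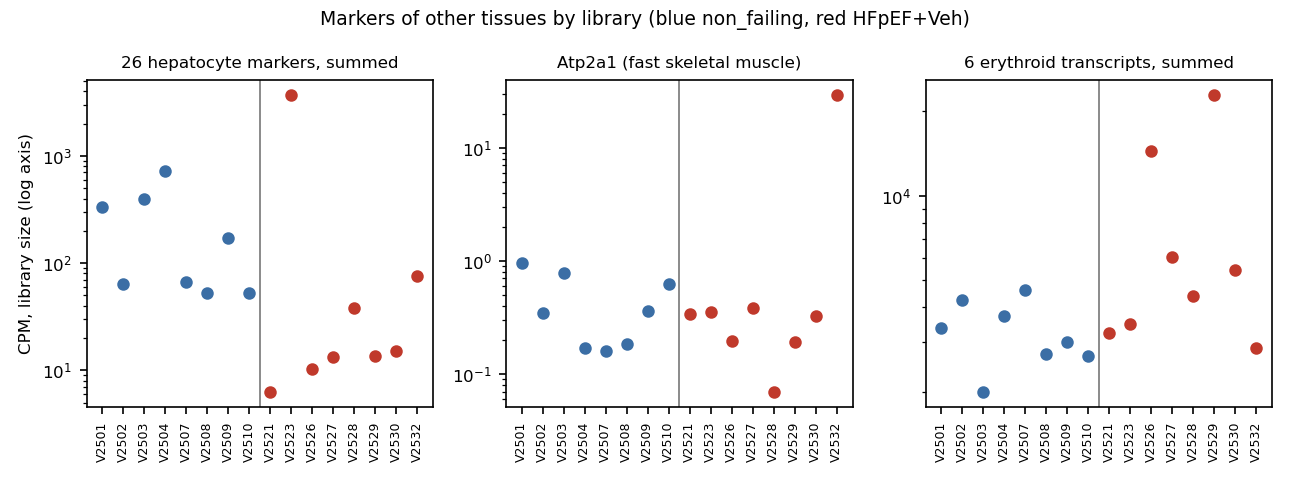
Summed CPM of 26 hepatocyte markers, CPM of Atp2a1 and summed CPM of 6 erythroid transcripts in each library, on log axes; each point is 1 mouse, blue for non_failing and red for HFpEF+Veh. V2523 stands at 3699 CPM in the hepatocyte panel and V2532 at 29.3 CPM in the Atp2a1 panel.

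The effect of the model on single genes was assessed by edgeR's quasi-likelihood test with Benjamini-Hochberg adjustment over all genes. Among 13765 tested genes, HFpEF+Veh exceeded non_failing for 243 (1.77%) and lay below it for 190 (1.38%), at an adjusted p under 0.05. Without V2523 these numbers were 281 (2.04% of 13801) and 339 (2.46%), and without V2523 and V2532 they were 413 (2.98% of 13871) and 503 (3.63%). Counts of called list members given below for these fits stand against these shares. Of the genes with no call with all libraries, 157 were called lower without V2523, 20 of them hepatocyte markers. Hpx, a further such marker, turned from called higher to called lower, so that 21 of the 26 were then called lower. Of the 433 genes called with all libraries, 208 (109 higher and 99 lower) were called in each of the 16 fits that left out a library, and 206 of these also without V2523 and V2532 together. For a named gene that lost its call in any of the 16 fits, the highest adjusted p is given below with the library left out and, where more than 2 fits lost it, the number of fits that kept it. For 5 genes it is given here instead. Hpx reached 0.0864 without V2508 (called in 9 of 16 fits, among them the fit without V2523, where it was called lower) and Atp2a1 0.206 without V2532 (called in 13). Ly6d reached 0.933, Tspan8 0.728 and Fgl1 0.612 without V2523, and each was called in the other 15 fits. The 433 genes included 118 with an absolute log2 fold change of 1 or more, and 148 under 0.5. The CPM of the groups did not overlap for 42 genes higher in HFpEF+Veh (0.305% of genes tested) and for 42 lower genes (0.305%). Scaling by library size alone moved the split from 56.1% to 79.5% higher and the median log2 fold change of all genes from 0.01 to 0.08, and limma on log2(TPM + 1) called 70.7% higher.

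**Figure D2:**
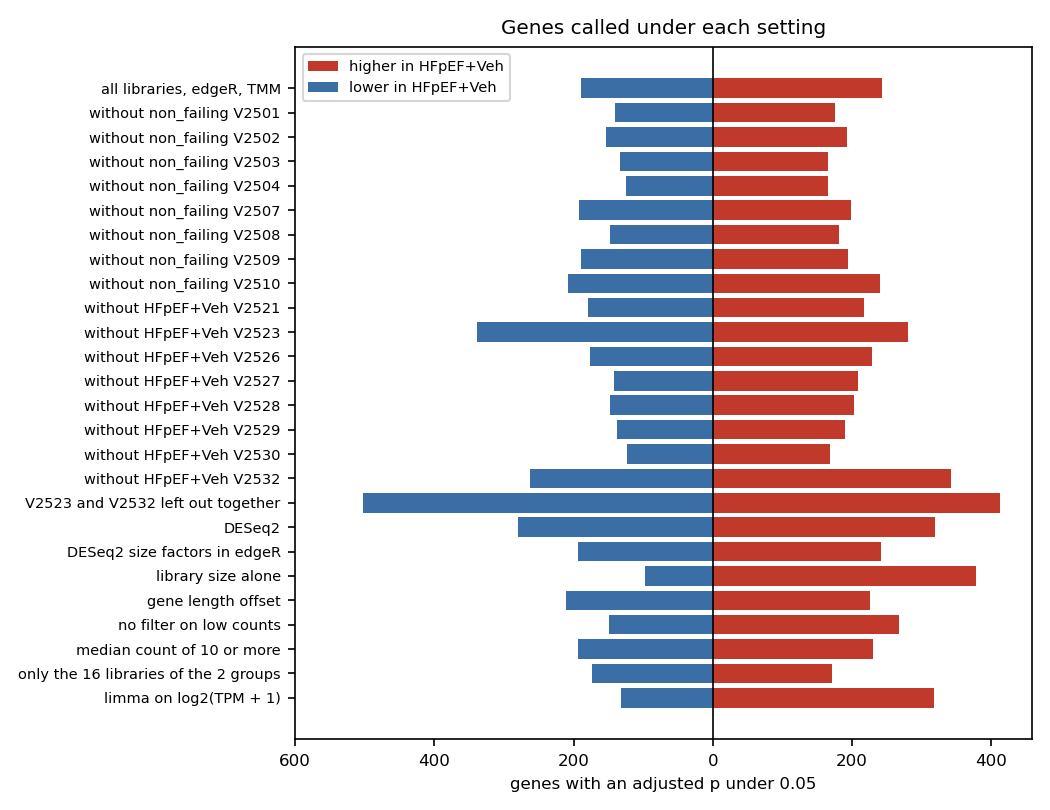
Number of genes called higher (red, to the right) and lower (blue, to the left) in HFpEF+Veh under each setting at an adjusted p under 0.05. The counts range from 98 lower with library size as the scaling to 503 lower without V2523 and V2532, against 190 with all libraries.

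The most strongly supported increases were those of Fbp2, Dbi, Edn3, Chrna2 and Cidea. Fbp2, the muscle fructose bisphosphatase of gluconeogenesis (GRCm38 chr13:62836877-62858422), ranged from 11.7 to 19.7 CPM (median 16.3) in non_failing and from 29.4 to 44.0 CPM (median 35.4) in HFpEF+Veh. The groups did not overlap, and the log2 fold change was 1.15 (adjusted p 1.34e-08, SE 0.11, higher in 8 of 8). Dbi, which encodes the acyl-CoA binding protein (chr1:120113280-120121078), had 73.2 to 88.4 CPM (median 79.5) in non_failing and 108 to 171 CPM (median 137) in HFpEF+Veh. It rose by 0.81 on the log2 scale (adjusted p 1.36e-08, SE 0.08), again without overlap. Edn3, which encodes a vasoactive peptide of the endothelin family (chr2:174760619-174784042), was measured at 0.812 to 2.05 CPM (median 1.11) in non_failing and at 4.70 to 12.7 CPM (median 5.82) in HFpEF+Veh. Every vehicle library lay above every control, and the log2 fold change was 2.59 (adjusted p 1.45e-08, SE 0.26). Chrna2, a nicotinic acetylcholine receptor subunit, went from 0.292 to 1.23 CPM (median 0.632) in non_failing to 1.84 to 4.44 CPM (median 2.69), a log2 fold change of 2.16 (adjusted p 2.92e-08, SE 0.23) with no overlap. The lipid droplet protein gene Cidea rose by 0.69 (adjusted p 4.98e-07, SE 0.08), from a median of 18.1 to 30.6 CPM, with slightly overlapping ranges.

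The other leading increases were Tesc, Lrrcc1, Myl1, Myoc and Fam189a2, with log2 fold changes from 0.44 for Fam189a2 to 1.40 for Myoc. Myoc, myocilin, had 2.95 to 6.08 CPM (median 4.12) in non_failing and 6.34 to 21.7 CPM (median 10.8) in HFpEF+Veh (log2 fold change 1.40, adjusted p 1.92e-05, SE 0.20). Tesc, a calcium-binding protein of the sodium-proton exchanger, rose from 85.6 to 137 CPM by median, by 0.67 (adjusted p 2.51e-06, SE 0.09).

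On the lower side, Scgb1c1, Gcat, Tnnt1, Abat, Pde1c and Lrrc4b led. Scgb1c1, a secretoglobin (chr7:140845547-140846769), had 6.73 to 16.1 CPM (median 11.3) in non_failing and 1.89 to 3.76 CPM (median 2.42) in HFpEF+Veh, a log2 fold change of -2.11 (adjusted p 2.09e-09, SE 0.19). Gcat, which cleaves a ketobutyrate product of threonine to glycine (chr15:79030874-79038353), ranged from 8.54 to 15.1 CPM (median 11.4) in controls and from 3.84 to 6.84 CPM (median 5.07) in HFpEF+Veh (log2 fold change -1.15, adjusted p 1.34e-08, SE 0.11). In neither gene did the groups overlap. Abat, GABA transaminase, fell from a median of 9.17 CPM (6.35 to 11.5) to 2.56 CPM (1.86 to 5.87), by 1.65 (adjusted p 1.56e-07, SE 0.19). Its highest vehicle library was V2523, and without V2523 the log2 fold change was -1.89. Lrrc4b, a synaptic adhesion protein, had 8.30 to 32.3 CPM (median 12.5) in non_failing and 1.45 to 6.54 CPM (median 3.67) in HFpEF+Veh (log2 fold change -2.05, adjusted p 4.10e-05, SE 0.30). Ndrg4, Mlf1, Net1, Doc2g, Bckdhb and Cenpf completed the set, with log2 fold changes from -0.60 to -1.52 and no overlap between the groups. The call of Cenpf, a kinetochore protein, was lost with an offset for transcript length (log2 fold change -0.92, adjusted p 0.354).

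**Figure D3:**
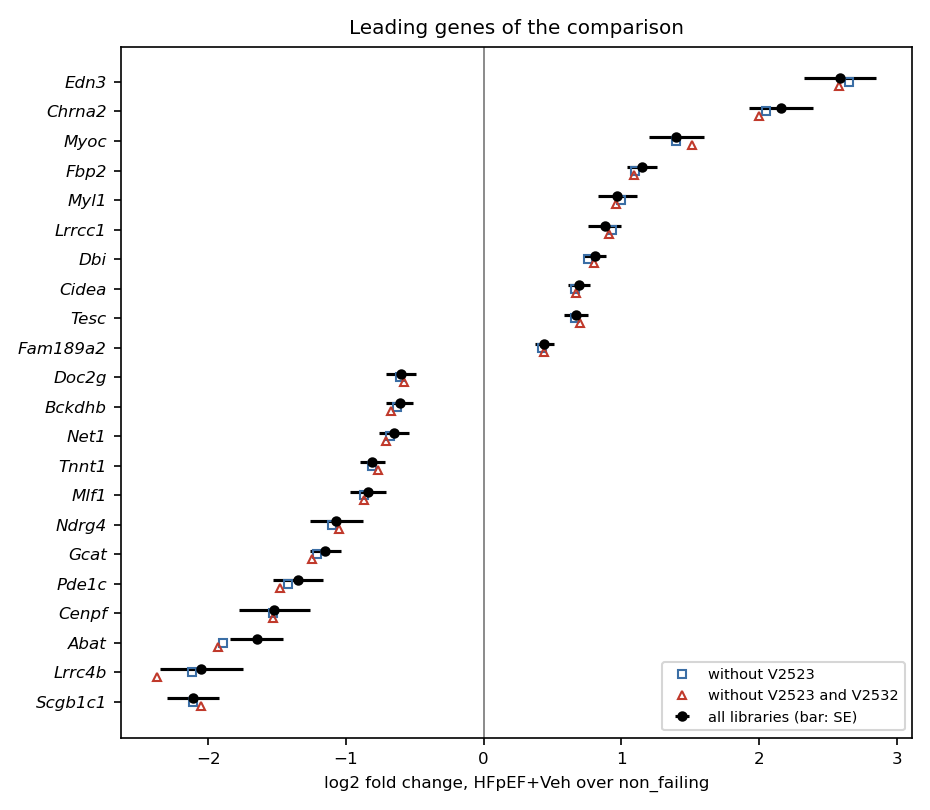
Log2 fold change of HFpEF+Veh over non_failing for the leading called genes, with all libraries (black, bar 1 SE), without V2523 (blue squares) and without V2523 and V2532 (red triangles). The 3 estimates keep 1 side of 0 for every gene shown, from 2.59 for Edn3 to -2.11 for Scgb1c1.

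Among target genes of PPARA, increases were the more frequent calls. Of 14 tested members, 8 were called higher and 0 lower, against 1.77% and 1.38% of all genes, and the median log2 fold change was 0.50, against 0.01 over all genes. Angptl4, a secreted inhibitor of lipoprotein lipase, had 2.71 to 7.84 CPM (median 4.81) in non_failing and 8.67 to 30.0 CPM (median 13.8) in HFpEF+Veh. Its groups did not overlap, and it rose by 1.70 (adjusted p 0.00190, SE 0.33). The acyl-CoA thioesterases Acot1 and Acot2, close copies between which reads can be divided uncertainly, rose by 1.44 (adjusted p 0.00620, SE 0.32) and 0.81 (adjusted p 4.86e-04, SE 0.14). Acot2 went from 31.9 to 56.1 CPM (median 39.2) to 51.9 to 102 CPM (median 65.5), and the ranges overlapped. Pex11a, a factor of peroxisome division, rose by 0.60 (adjusted p 6.46e-04, SE 0.11), and Retsat, retinol saturase, by 0.57 (SE 0.14, adjusted p 0.0192; 0.0502 without V2507 and 0.0741 without V2523 and V2532). Plin2, which coats lipid droplets, rose from a median of 29.9 to 39.5 CPM (log2 fold change 0.43, adjusted p 0.00704, SE 0.10), a call that an offset for transcript length took away (0.29, adjusted p 0.130). Pdk4, the kinase that inhibits pyruvate dehydrogenase, had 130 to 247 CPM (median 174) in non_failing and 203 to 488 CPM (median 263) in HFpEF+Veh (log2 fold change 0.68, adjusted p 0.0457, SE 0.20). Only 7 of the 16 leave-one-out fits called it, with an adjusted p of 0.102 without V2523 and 0.105 without V2504. The receptor gene Ppara itself had a log2 fold change of -0.02 (adjusted p 0.977, SE 0.25). Its partner Rxrb was called higher, at 0.24 (adjusted p 0.0231, SE 0.06), in 13 of 16 such fits (adjusted p 0.0605 without V2530). Acaa1b, a peroxisomal thiolase, had 0.431 to 5.22 CPM (median 1.19) in non_failing and 0 to 7.35 CPM (median 0.263) in HFpEF+Veh. The part of the liver transcripts of V2523 and of the controls in its values was not tested. Without V2523, Acaa1b, at -0.50 with all libraries (adjusted p 0.771), was called lower (adjusted p 0.0315). Pdk4 and Cpt1a (adjusted p 0.0602) then lost their calls and Ucp2, an uncoupling protein, gained one (log2 fold change 0.72, adjusted p 0.0359, against 0.0591 with all libraries), which left 7 members called higher and 1 lower. The bases AGGTCA, the half-site that PPARA recognizes, were searched on both strands in the 250 bases before the RefSeq start sites (GRCm38.p6). They occurred in 4 of 12 members with a promoter sequence, in 2 of the 7 called members among them, and in 13.2% of tested genes. A pair of half-sites with 1 base between them was found in 0 of the 12 and in 0.0295% of tested genes.

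In mitochondrial fatty acid oxidation, 6 of 23 members were called higher and 0 lower, against 1.77% and 1.38% of all genes, with a median log2 fold change of 0.28. Without V2523 the number called higher was 5. Cpt1b, the muscle carnitine palmitoyltransferase that admits fatty acids to the mitochondrion, had 341 to 426 CPM (median 390) in non_failing and 460 to 634 CPM (median 511) in HFpEF+Veh. The groups did not overlap (log2 fold change 0.44, adjusted p 8.27e-04, SE 0.08). Ech1 and Decr1, which prepare unsaturated fatty acids for oxidation, rose by 0.51 (adjusted p 5.84e-04, SE 0.09) and 0.53 (adjusted p 0.00329, SE 0.11). Ech1 was at 954 to 1256 CPM (median 1142) in controls and at 1515 to 1887 CPM (median 1560) in HFpEF+Veh, without overlap. Acaa2, the thiolase of the last step, rose by 0.49 (adjusted p 0.00256, SE 0.10), likewise without overlap. Cpt2 rose by 0.42 (adjusted p 0.0224, SE 0.11) and Cpt1a, the other carnitine palmitoyltransferase isoform, by 0.40 (adjusted p 0.0281, SE 0.11). Cpt2 missed the threshold without V2507 (adjusted p 0.0584) and without V2523 and V2532 (0.0683), and Cpt1a without V2523 (0.0602), without V2504 (0.0684) and in 4 more such fits. The dehydrogenases and the trifunctional enzyme did not pass, with 0.34 for Acadvl (adjusted p 0.110), 0.38 for Hadha (adjusted p 0.239) and -0.11 for Acadm (adjusted p 0.876).

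Of 15 tested genes of fatty acid uptake and activation, 2 were called higher (Fabp3 and Dbi) and 2 lower (Lpl and Acsl6), and of 19 of lipid droplet and triglyceride turnover 2 were called higher (Cidea and Plin2) and 0 lower, against 1.77% and 1.38% of all genes. Of 17 genes of fatty acid synthesis and desaturation, 1 was called in each direction. Without V2523, Fads2 of this list was also called lower (log2 fold change -0.39, adjusted p 0.0101, against -0.17 and 0.591 with all libraries). Its vehicle levels ran from 3.99 to 11.3 CPM (median 4.95), and the part of liver transcripts in this call was not tested. Without V2523 and V2532, 4 lipid droplet and triglyceride genes were called higher. Fabp3, the cytosolic fatty acid carrier of heart muscle, rose by 0.52 (adjusted p 0.00529, SE 0.11), from 1827 to 2766 CPM (median 2143) to 2219 to 3688 CPM (median 3100), and the ranges overlapped. Lpl, lipoprotein lipase, fell by 0.38 (adjusted p 0.03, SE 0.10), from a median of 2959 to 2407 CPM, and Acsl6, an acyl-CoA synthetase, by 0.51 (adjusted p 0.0247, SE 0.13). Both calls were lost with library size as the scaling (adjusted p 0.0999 and 0.0646) and without V2501 (0.0868 and 0.0624), and 10 and 11 of the 16 fits without a library kept them. The desaturase genes Scd4 and Scd1 belong to a family with shared sequence. Scd4 rose by 1.41 (adjusted p 6.13e-04, SE 0.25) from a median of 2.41 to 6.40 CPM, while Scd1 fell by 0.68 (adjusted p 0.0323, SE 0.18). Scd1 was called in 8 of 16 fits without a library, with an adjusted p of 0.111 without V2504. Its call was lost with library size as the scaling and with limma. Of the ketone body genes, Oxct1, which activates ketones for oxidation, fell by 0.54 (adjusted p 0.0426, SE 0.15). Oxct1 was called in 5 of 16 fits without a library (adjusted p 0.104 without V2501) and was not called with library size as the scaling.

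Of 25 tested genes of glucose uptake and glycolysis, 2 were called higher and 4 lower, against 1.77% and 1.38% of all genes, with a median of -0.11. Without V2523 there were 3 called higher, Pfkp being added, and without V2523 and V2532 there were 4. Besides Fbp2, an enzyme of gluconeogenesis, the phosphofructokinase Pfkl was called higher, at 0.35 (adjusted p 0.0415, SE 0.10). It was called in only 3 of 16 fits without a library (adjusted p 0.0895 without V2507). Slc2a12, a glucose transporter, fell by 0.87 (adjusted p 0.00525, SE 0.19), from 1.74 to 5.70 CPM (median 3.58) to 1.73 to 2.75 CPM (median 1.92). The insulin-responsive transporter gene Slc2a4 was at 216 to 327 CPM (median 250) in non_failing and 159 to 238 CPM (median 207) in HFpEF+Veh, a difference of -0.38 (adjusted p 0.0486, SE 0.11) that was called in 4 of 16 such fits and reached an adjusted p of 0.127 without V2501. Eno3, muscle enolase, fell by 0.52 (SE 0.13, adjusted p 0.0224; 0.0512 without V2501) and Ldhb, the heart lactate dehydrogenase subunit, by 0.45 (SE 0.13, adjusted p 0.0400; 0.104 without V2530, called in 6 of 16 fits). In the TCA cycle 0 of 18 genes were called in either direction by edgeR, DESeq2 or limma. Of the 18, 1 had an unadjusted edgeR p under 0.05, against 2185 of all 13765 genes, and 17 had a negative log2 fold change. The median was -0.17, or -0.33 without V2523 and V2532.

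Some enzymes that degrade branched chain amino acids were lower. Of 23 tested, 5 were called lower and 0 higher, against 1.38% and 1.77% of all genes, 19 had a negative log2 fold change, and the median was -0.36. Without V2523 and V2532 the number called lower was 10, against 3.63% of all genes in that fit. Bckdhb, a subunit of the branched chain ketoacid dehydrogenase (chr9:83925145-84124240), had 28.3 to 40.9 CPM (median 33.7) in non_failing and 17.5 to 26.3 CPM (median 23.0) in HFpEF+Veh. Its groups did not overlap (log2 fold change -0.61, adjusted p 4.71e-04, SE 0.10). Ppm1k, the phosphatase that activates this complex, fell by 0.61 (SE 0.15, adjusted p 0.0207; 0.0531 without V2530, called in 13 of 16 fits). Hsd17b10 and Acadsb, which act on the isoleucine branch, fell by 0.44 (adjusted p 0.00383, SE 0.09) and 0.46 (adjusted p 0.0118, SE 0.11). Ivd, the dehydrogenase of the leucine branch, fell by 0.43 (adjusted p 0.0323, SE 0.12) and was called in 7 of 16 fits without a library (adjusted p 0.0982 without V2501). The other dehydrogenase subunits were at -0.15 for Bckdha (adjusted p 0.610) and -0.45 for Dbt (adjusted p 0.0906).

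**Figure D4:**
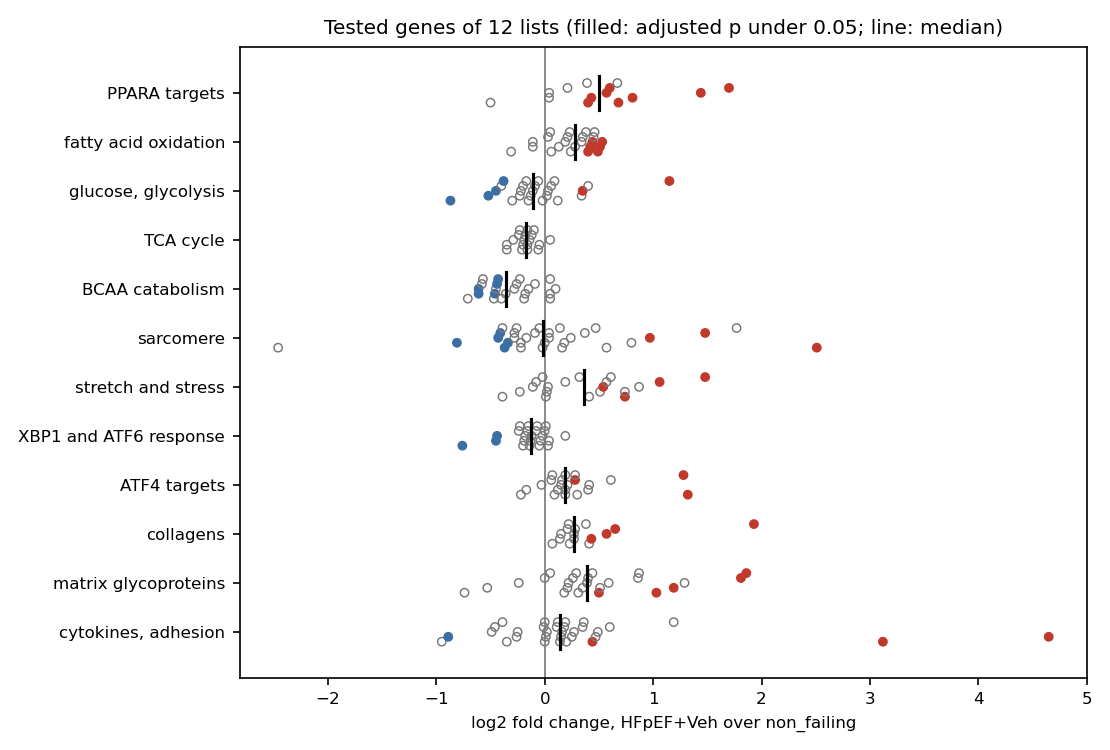
Log2 fold change of each tested gene of 12 lists (1 point per gene, filled red or blue where called higher or lower) with the list's median as a black line. The medians run from -0.36 for branched chain amino acid (BCAA) catabolism to 0.50 for PPARA targets, and Spp1 at 4.65 and Lcn2 at 3.12, both highest in V2523, are the 2 highest points.

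Among sarcomere genes the called ventricular isoforms were lower, while Acta1 and Myl1 of the skeletal isoforms were higher and Tnnt1 was lower. Of 31 tested genes, 3 were called higher and 5 lower, against 1.77% and 1.38% of all genes, and the median of -0.02 turned to 0.05 with library size as the scaling. Without V2523 and V2532, 2 were called higher and 7 lower. Tnnt1, slow skeletal troponin T, had 12 to 14.5 CPM (median 13.2) in non_failing and 6.25 to 9.60 CPM (median 7.51) in HFpEF+Veh, without overlap (log2 fold change -0.81, adjusted p 4.56e-08, SE 0.09). Tnnt2, cardiac troponin T, had a median of 7229 CPM in controls (6258 to 9344) and 5588 CPM in HFpEF+Veh (4410 to 5937), also without overlap (log2 fold change -0.43, adjusted p 0.00459, SE 0.09). The ventricular light chains Myl3 and Myl2 fell by 0.41 (adjusted p 0.00256, SE 0.08) and 0.37 (adjusted p 0.0121, SE 0.09), and cardiac troponin I, Tnni3, by 0.34 (adjusted p 0.0129, SE 0.08). Tnnt2, Myl3, Myl2 and Tnni3 are cardiomyocyte markers, of which 10 were tested, 4 called lower (1.38% of all genes were) and 0 higher. The summed level of the 10 markers was 44927 to 60073 CPM in non_failing and 43682 to 51538 CPM in HFpEF+Veh, and its part in these results was not tested. Myl1, a skeletal light chain, rose by 0.97 (adjusted p 1.92e-05, SE 0.14), from 13.2 to 32.0 CPM (median 20.3) to 31.6 to 47.4 CPM (median 39.1). Its log2 fold change without V2523 and V2532 was 0.96 (adjusted p 7.09e-05). Tnnt3, fast troponin T, was called higher with all libraries (2.51, adjusted p 0.0275, SE 0.67) but its highest vehicle level, 22.8 CPM, lay in V2532, against a vehicle median of 0.699 CPM. Without V2532 its log2 fold change was 0.06 (adjusted p 0.949), and 12 of 16 fits without a library called it.

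Among 20 tested stretch and stress genes of cardiomyocytes, 4 were called higher and 0 lower, against 1.77% and 1.38% of all genes, with a median of 0.36. Without V2523 the number called higher was 6, with Xirp1 and Xirp2, which bind actin, added (adjusted p 0.0405 and 0.0407, against 0.0592 and 0.0631 with all libraries). Acta1, skeletal alpha-actin of the fetal program (chr8:123891769-123894751), had 52.6 to 148 CPM (median 109) in non_failing and 222 to 379 CPM (median 317) in HFpEF+Veh. Every vehicle heart exceeded every control (log2 fold change 1.48, adjusted p 0.00141, SE 0.28), and the value without V2523 and V2532 was called as well (adjusted p 0.00266). Abra, an actin-binding protein of striated muscle, rose by 1.06 (adjusted p 0.00633, SE 0.23), from 27.1 to 75.8 CPM (median 60.9) to 63.8 to 176 CPM (median 122). Ankrd23, a titin-associated stress gene, rose by 0.74 (adjusted p 0.00315, SE 0.15). Rcan1, a calcineurin target, rose by 0.54 (adjusted p 0.0318, SE 0.15), in 9 of 16 fits without a library (adjusted p 0.0994 without V2528). The best known markers of load did not pass. Nppb, brain natriuretic peptide, had 103 to 280 CPM (median 187) in non_failing and 215 to 445 CPM (median 268) in HFpEF+Veh (log2 fold change 0.58, adjusted p 0.207, SE 0.24). Nppa, atrial natriuretic peptide, had a log2 fold change of -0.28 (adjusted p 0.773, SE 0.38), and Myh7, the slow myosin heavy chain, 0.57 (adjusted p 0.157, SE 0.21).

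**Figure D5:**
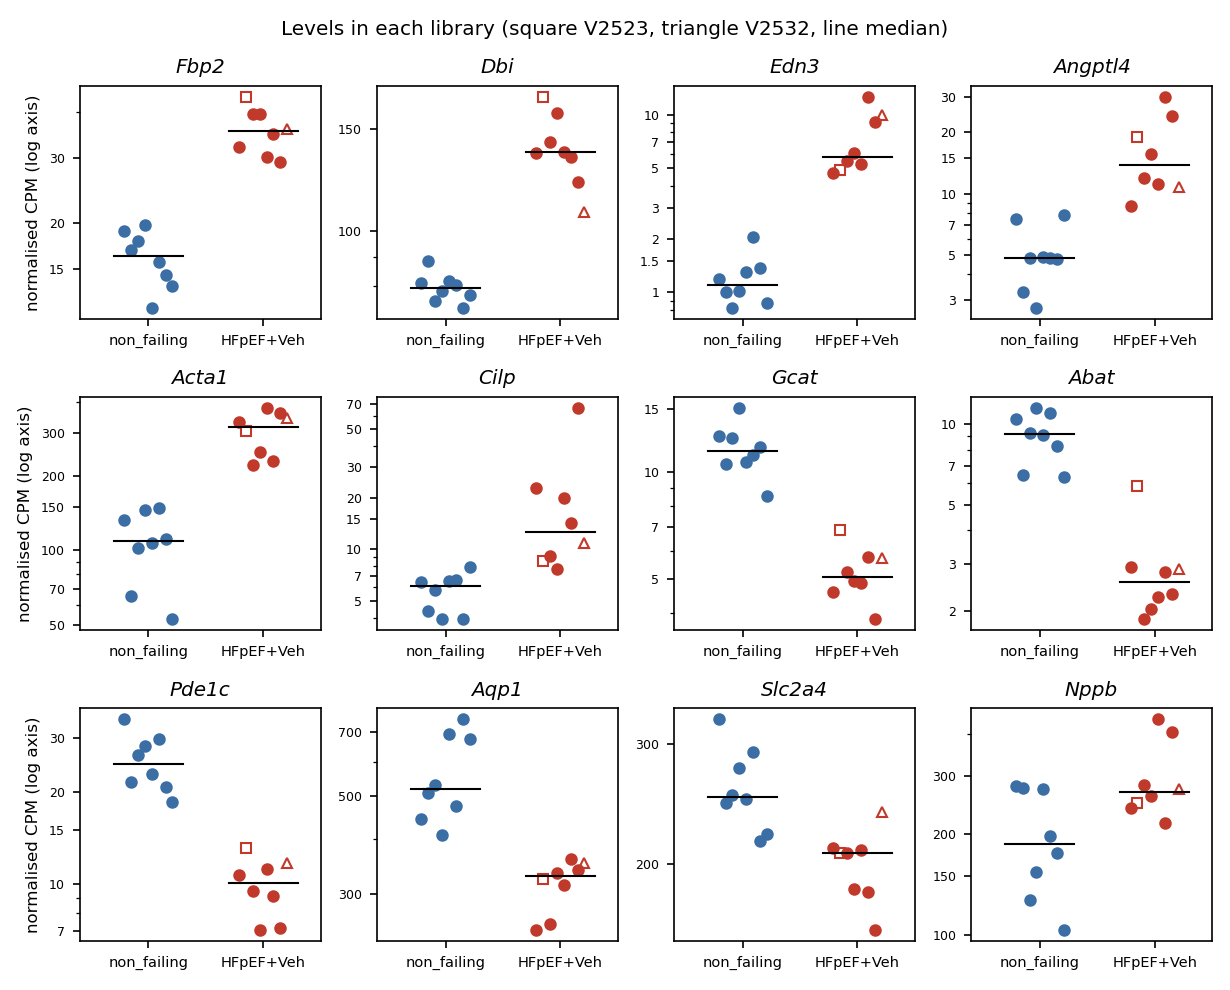
Normalised CPM of 12 genes in each library on log axes, with non_failing in blue and HFpEF+Veh in red, V2523 as an open square, V2532 as an open triangle and the group median as a line. Fbp2, Dbi, Edn3, Angptl4, Acta1, Gcat, Abat, Pde1c and Aqp1 show groups that do not overlap, whereas Cilp, Slc2a4 and Nppb overlap.

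Few genes of receptor signalling, channels and calcium cycling were called. Of 26 tested sodium and potassium channels and connexins, 2 were called lower and 0 higher, of 23 calcium cycling genes 1 lower and 0 higher, and of 20 genes of nitric oxide and cGMP handling 1 lower and 0 higher, against 1.38% and 1.77% of all genes. Without V2523 the channels had 3 called lower, and the calcium cycling genes 2 lower and 1 higher. The higher gene was Casq1 (adjusted p 0.0446), a fast skeletal muscle marker with its highest vehicle level in V2532. Its call was lost without V2523 and V2532 (adjusted p 0.0868). Pde1c, a calcium-dependent phosphodiesterase of cyclic nucleotides (chr6:56069804-56569103), had 18.5 to 34.8 CPM (median 24.7) in non_failing and 7.02 to 13.1 CPM (median 10.1) in HFpEF+Veh. It fell by 1.35 (adjusted p 6.57e-06, SE 0.18) without overlap and was the called gene of nitric oxide and cGMP handling. Of the nitric oxide synthases, Nos3 at 0.14 (adjusted p 0.703, SE 0.15) and Nos2 at -0.19 (adjusted p 0.646, SE 0.17) did not pass, and Nos1 was not tested. Of 15 adrenergic, angiotensin and endothelin genes, 2 were called higher and 1 lower, against the same 1.77% and 1.38%. Without V2523 a further gene, Chrm2, the muscarinic receptor of heart muscle, was called lower (adjusted p 0.0498, against 0.0738 with all libraries). Besides Edn3, Grk5, a kinase that desensitizes receptors, rose by 0.49 (adjusted p 0.00529, SE 0.11). Agtr1a, the angiotensin type 1 receptor, fell by 0.56 (adjusted p 0.0126, SE 0.13), from 16.6 to 26 CPM (median 21.5) to 9.59 to 18.8 CPM (median 14.2). Aqp1, the water channel of endothelium (chr6:55336432-55348555), fell from 409 to 751 CPM (median 520) to 248 to 359 CPM (median 330), by 0.83 (adjusted p 0.00203, SE 0.16). It was the only called gene among 18 endothelial markers, whose summed level was 1800 to 2856 CPM in non_failing and 1954 to 2789 CPM in HFpEF+Veh. Kcnj2, the inward rectifier channel, fell by 0.63 (SE 0.16, adjusted p 0.0176; 0.0572 without V2504), Abcc9, a subunit of the ATP-sensitive potassium channel, by 0.46 (SE 0.12, adjusted p 0.0251; 0.0704 without V2530, called in 10 of 16 fits), and Trdn, triadin of the calcium release complex, by 0.46 (SE 0.12, adjusted p 0.0250; 0.0742 without V2501, called in 11 of 16 fits). The call of Trdn was lost with library size as the scaling and with limma. With library size the channels had 1 called lower, against 98 of all 13765 genes.

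With all libraries, a few genes of protein folding in the endoplasmic reticulum were called lower and a few genes of the integrated stress response higher. The sensors IRE1 and ATF6 raise folding capacity through XBP1 and ATF6, which act at an element of CCAAT and CCACG with 9 bases between them, found in chaperone promoters. Of 23 tested genes of this response, 3 were called lower and 0 higher, against 1.38% and 1.77% of all genes, 19 had a negative log2 fold change, and the median was -0.13. Without V2523 the number called lower was 4, and without V2523 and V2532 it was 5. Promoter sequence from RefSeq (GRCm38.p6) is shown for Hspa5, Sdf2l1 and Hsp90b1, called lower with all libraries or without V2523, as the strand of the gene reads, with the fixed bases of the element in capitals for Hspa5 and Hsp90b1, on either strand. In Sdf2l1, which has no complete match in this window, capitals mark CCACG.
Hspa5, chr2:34771990-34772089, plus strand: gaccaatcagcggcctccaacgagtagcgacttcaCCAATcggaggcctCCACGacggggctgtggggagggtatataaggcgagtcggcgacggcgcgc
Hsp90b1, chr10:86705525-86705664, minus strand: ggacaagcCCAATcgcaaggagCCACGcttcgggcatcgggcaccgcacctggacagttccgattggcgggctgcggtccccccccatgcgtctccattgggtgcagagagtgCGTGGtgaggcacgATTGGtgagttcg
Sdf2l1, chr16:17132514-17132603, minus strand: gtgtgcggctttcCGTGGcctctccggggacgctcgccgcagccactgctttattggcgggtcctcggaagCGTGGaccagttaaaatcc

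The complete element, searched on both strands of the 250 bases before the start, occurred in 7 of 19 members with a promoter sequence and in 0.157% of 10184 tested genes, and its shorter part CCACG, which it contains, in 15 of 19 and 45.4%. A match is a description of the letters only. Hspa5, the chaperone BiP, had 207 to 351 CPM (median 284) in non_failing and 167 to 251 CPM (median 199) in HFpEF+Veh, a log2 fold change of -0.45 (adjusted p 0.0281, SE 0.12). Manf, a secreted stress factor of the reticulum, fell by 0.44 (adjusted p 0.0133, SE 0.11) and Sdf2l1, a cochaperone of BiP, by 0.76 (adjusted p 0.0318, SE 0.21). Hspa5 and Sdf2l1 were each called in 8 of 16 fits without a library (adjusted p 0.0774 and 0.0891 without V2501). None of the 3 was called with library size as the scaling (adjusted p 0.0648 to 0.0958), where the list's median was -0.06. Hsp90b1, the chaperone GRP94, was at -0.24 (adjusted p 0.106, SE 0.08) and was called without V2523 (adjusted p 0.0218). Xbp1 had a log2 fold change of -0.13 (adjusted p 0.577, SE 0.11) and its highest vehicle level, 70.1 CPM, in V2523, against 47.2 CPM in the next vehicle library.

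The integrated stress response, which acts through ATF4, had 3 of 21 tested genes called higher and 0 lower, against 1.77% and 1.38% of all genes, with 18 positive log2 fold changes and a median of 0.19. Without V2523, Cth, which makes cysteine, was called lower (log2 fold change -1.14, adjusted p 0.0114, against -0.17 and 0.878 with all libraries). Mthfd2, a mitochondrial enzyme of folate metabolism, rose by 1.32 (adjusted p 1.63e-04, SE 0.21), from 1.16 to 1.76 CPM (median 1.29) to 1.59 to 6.17 CPM (median 3.14). Gdf15, a secreted stress cytokine, rose by 1.28 (adjusted p 0.00383, SE 0.27), from 1.75 to 4.34 CPM (median 2.58) to 3.82 to 10.5 CPM (median 5.99). Atf5, a transcription factor of the mitochondrial stress response, rose by 0.28 (SE 0.07, adjusted p 0.0299; 0.0876 without V2521, called in 10 of 16 fits). Known ATF4 targets that did not pass were Asns, at 0.40 (adjusted p 0.268), Trib3, at 0.19 (adjusted p 0.686), and Chac1, at -0.22 (adjusted p 0.725).

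Of 15 tested collagens 4 were called higher and 0 lower, of 25 matrix glycoproteins and elastic fibre genes 5 and 0, and of 10 small proteoglycans 3 and 0, against 1.77% and 1.38% of all genes. The glycoproteins had a median of 0.39, and without V2523 Efemp1, a fibulin, was called lower (log2 fold change -0.65, adjusted p 0.0155, against -0.53 and 0.0712 with all libraries). Without V2523 and V2532, 10 glycoprotein and elastic fibre genes were called higher and 1 lower, with a median of 0.50. The fits without 1 library called from 2 to 6 genes of this list. All 15 collagens had positive log2 fold changes, with a median of 0.27. Without V2523 the number of collagens called higher was 5, with Col5a2 added (adjusted p 0.0498). The called ones were Col6a3 at 0.57 (adjusted p 0.00502, SE 0.12), Col8a1 at 0.65 (adjusted p 0.0223, SE 0.17), Col8a2 at 1.93 (adjusted p 0.0235, SE 0.50) and Col16a1 at 0.43 (adjusted p 0.0310, SE 0.12). An offset for transcript length ended the calls of Col6a3 (adjusted p 0.290) and Col16a1 (0.216), and without V2530 the log2 fold change of Col8a2 was 1.00 (adjusted p 0.235). Col8a1 was called in 11 of 16 fits (0.0740 without V2530) and Col16a1 in 8 (0.0792 without V2528). The fibrillar chains Col1a1, at 0.23 (adjusted p 0.560, SE 0.18), and Col3a1, at 0.14 (adjusted p 0.756, SE 0.19), did not pass. Cilp, a matrix protein of cardiac fibroblasts, had 3.90 to 7.84 CPM (median 6.13) in non_failing and 7.68 to 67.0 CPM (median 12.5) in HFpEF+Veh (log2 fold change 1.81, adjusted p 0.00296, SE 0.37). Comp, cartilage oligomeric matrix protein, had 0.880 to 3.11 CPM (median 2.37) and 2.19 to 40.4 CPM (median 3.67), a log2 fold change of 1.86 (adjusted p 0.0332, SE 0.51). V2530 held the highest level of both, and without it the log2 fold change of Cilp was 1.23 (adjusted p 0.0192) and that of Comp 0.60 (adjusted p 0.504), while 11 of 16 fits called Comp. Postn, periostin, rose by 1.03 (SE 0.24, adjusted p 0.0112; 0.0531 without V2530), and Mfap4, of elastic microfibrils, by 1.19 (SE 0.31, adjusted p 0.0214; 0.78 and 0.119 without V2530). Ltbp2, which binds latent TGF-beta complexes and microfibrils, rose by 1.67 (SE 0.35, adjusted p 0.00387; 1.14 and 0.0253 without V2530), and the proteoglycans Lum and Bgn by 0.86 (adjusted p 0.00190, SE 0.17) and 0.62 (adjusted p 0.00296, SE 0.13). Bgn went from 141 to 197 CPM (median 175) to 194 to 367 CPM (median 252). Of 21 tested basement membrane genes, 1 was called higher and 1 lower, with 17 positive log2 fold changes and a median of 0.15. Without V2523, 2 were called higher and 1 lower, and without V2523 and V2532, 4 and 1. Agrn, agrin, rose by 0.86 (SE 0.24, adjusted p 0.0359; 0.0805 without V2526, called in 5 of 16 fits), and Lamb3, a laminin chain, fell by 0.62 (adjusted p 0.00380, SE 0.13). The summed level of 11 fibroblast markers was 1097 to 1760 CPM in non_failing and 1088 to 2454 CPM in HFpEF+Veh, with 3 of the 11 called higher (Pdgfra, Lum and Postn), and its part in these changes was not tested.

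Of 32 tested cytokines, chemokines and adhesion molecules, 3 were called higher and 1 lower, against 1.77% and 1.38% of all genes, with 21 positive log2 fold changes and a median of 0.14. Without V2523, 1 was called higher and 1 lower. Spp1, osteopontin, had 0.108 to 0.408 CPM (median 0.199) in non_failing and 0.315 to 41.0 CPM (median 0.388) in HFpEF+Veh, and its highest level lay in V2523. Its log2 fold change was 4.65 (adjusted p 9.54e-04, SE 0.85) with all libraries and 1.6 without V2523 (adjusted p 0.0336). Lcn2, lipocalin 2, was called only with V2523 (log2 fold change 3.12, adjusted p 0.00873, against 0.427 without it). Cx3cl1, fractalkine, rose by 0.44 (SE 0.12, adjusted p 0.0281; 0.0690 without V2508 and 0.0533 without V2523, called in 9 of 16 fits), and Ccl11, eotaxin, fell by 0.89 (adjusted p 0.0118, SE 0.21), from 3.80 to 6.30 CPM (median 4.53) to 1.72 to 3.19 CPM (median 2.75), without overlap. Of 16 macrophage markers, 14 had a positive log2 fold change, with a median of 0.22, and only Trem2, a lipid receptor, was called (0.76, SE 0.21, adjusted p 0.0395; 0.128 without V2530, called in 7 of 16 fits). Interferon response genes had 0 of 23 called with edgeR, with 20 positive values and a median of 0.16. An unadjusted edgeR p under 0.05 was found for 4 of the 23, against 2185 of all 13765 genes. Without V2523, 2 were called higher, Rsad2 and Ifi27l2a. By DESeq2, which replaces extreme counts, 2 of the 23 were called higher, against 319 of all 13765 genes, and by limma 1, against 318 of 13909.

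A single gene was close to absent in HFpEF+Veh while present in every control. Cyp1a1, a cytochrome P450 induced through the aryl hydrocarbon receptor, had 7 to 59 counts in the non_failing libraries, a sum of 280 counts in 259 M, and 0 to 2 counts in the HFpEF+Veh libraries, a sum of 3 counts in 261 M. The 22 libraries of the drug-treated HFpEF mice held at most 2 counts each and 6 in all. The filter on low counts removed this gene, and in the fit with no filter its adjusted p was 2.56e-07. It was the only gene of the tables with at least 5 counts in every library of 1 group and at most 2 in every library of the other, a rule set after its values were seen.

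Erythroid transcripts were higher in some vehicle hearts. All 6 had a positive log2 fold change, with a median of 1.27, and 0 were called with edgeR or limma. An unadjusted edgeR p under 0.05 was found for all 6, against 2185 of all 13765 genes. Hbb-bs, a beta globin, had 746 to 2326 CPM (median 1310) in non_failing and 1164 to 9209 CPM (median 2108) in HFpEF+Veh (log2 fold change 1.26, adjusted p 0.0547, SE 0.37). Without V2529 the log2 fold change of Hbb-bs was 0.82 (adjusted p 0.240). The summed level of the list was highest in V2529 (22917 CPM) and V2526 (14456 CPM). Without V2523 and V2532 all 6 were called higher, against 2.98% of all genes. Without V2523 alone 4 were called higher, against 2.04% of all genes, and 3 of these 4 were globin genes with nearly identical copies. DESeq2 with all libraries called 3 of the 6 higher, and 319 of all 13765 genes.

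Levels in the drug-treated HFpEF hearts are given beside these for a selection of genes as medians only, since all compare with the same controls. Edn3 had a median of 5.01 CPM under TYA-018 and 5.61 CPM under the SGLT2 inhibitor, against 5.82 in HFpEF+Veh and 1.11 in non_failing. Fbp2 had 40.0 and 42.8 CPM, against 35.4 and 16.3. Dbi had 140 and 131 CPM, against 137 and 79.5. Gcat had 6.25 and 6.18 CPM, against 5.07 and 11.4, and Abat 2.03 and 2.46 CPM, against 2.56 and 9.17. Angptl4 had 19 and 30.9 CPM, against 13.8 and 4.81. Other leading genes lay nearer to non_failing under TYA-018. Lrrcc1 had medians of 13.6 and 16.1 CPM, against 18.8 and 10.6, Mlf1 71.3 and 60.5 CPM, against 48.3 and 83.7, and Ndrg4 90.6 and 69.3 CPM, against 59.5 and 119. These differences were not tested here.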

How the data were processed

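Polyadenylated RNA of left ventricle was sequenced with a stranded kit. The authors trimmed reads with fastp, estimated abundances with Salmon (1.6.0 per the labels) and used tximport to obtain 29564 genes. The deposited tables hold expected counts, not normalized, TPM values scaled by the authors for length and depth, and effective gene lengths, used only as an offset. The labels name build hg38 and the study's methods GRCm38. They also differ on sex, read length and treatment length. Unmapped columns numbered 0.

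Expected counts were rounded, filtered (filterByExpr), scaled by TMM and fitted in edgeR 4.0.16 (glmQLFit, glmQLFTest) with the 4 groups of all 38 libraries in 1 model. The contrast HFpEF+Veh minus non_failing was tested with Benjamini-Hochberg adjustment at 0.05. The SE given is the absolute log2 fold change divided by the square root of the F statistic of this test. The script was tested on simulated data. Alternatives were DESeq2 1.42.0, limma 3.58.1 on log2(TPM + 1), other scalings and filters, a length offset, only the 16 libraries, and each library left out. The labels name no batch. Coordinates come from GENCODE M21 on GRCm38, which held 27812 of the symbols. Salmon divides reads between close copies, so values of Acot1 and Acot2, the Scd genes, the Mup genes and globins are uncertain.

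The groups, gene lists and named genes were chosen with earlier results of these data known. Named were the 12 higher and 12 lower genes with the smallest p, at an average log2 CPM of at least 1, called also without V2523 and without V2523 and V2532; up to 6 members of each of 66 lists called with all libraries or without V2523; a fixed set of markers; up to 6 genes whose call V2523 decided, in each direction; the 5 largest called changes in each direction at an average log2 CPM of at least 0; and genes 4-fold above every other vehicle library in V2523 or V2532. The text gives a part of them. Some genes that the rule names are not reported here and were left out of their lists.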

Additional observations from a re-analysis of the deposited data

Results flagged for a closer look

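Single libraries stood apart from the other 7 of their group in 21 of 112 group values examined, by Dixon's gap ratio, whose critical value chance alone exceeds in about 5% of groups. V2523 gave 9 of them. Beside the summed hepatocyte markers at 3699 CPM (next vehicle library 75.1), it was highest for Hpx, hemopexin, at 284 CPM (1.16), Ly6d at 91.7 CPM (0.589), Fgl1 at 43.1 CPM (0.353), Spp1 at 41.0 CPM (2.56), Tspan8 at 32.9 CPM (0.424), Xbp1 at 70.1 CPM (47.2), Abat at 5.87 CPM (2.91) and summed thymocyte markers at 1.09 CPM (0.444). Values in parentheses are the nearest other library of the group.

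Among the other vehicle libraries, V2532 had the highest total, 57.7 M counts (34.0), and the lowest sum of adipocyte markers, 311 CPM (453). V2530 had the lowest sum of Schwann cell and nerve markers, 18.5 CPM (25.6), and V2521 the highest Col1a1, 73.3 CPM (55.0). Among the non_failing libraries, V2508 had the highest total, 48.3 M counts (34.4), the highest Cenpf, 25 CPM (16.4), and the highest Edn3, 2.05 CPM (1.36). V2502 had the highest Tspan8, 1.14 CPM (0.556), and the highest sum of mesothelial markers, 63.9 CPM (25.5). V2504 was highest for Hpx, 9.46 CPM (4.5), V2501 for Lrrc4b, 32.3 CPM (18.1), and V2507 for the share of mitochondrial counts, 37.8% (32.8).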

How the results depend on the processing

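With V2523 and V2532 left out, 916 genes were called, 413 higher and 503 lower. Library size as the scaling gave 379 higher and 98 lower. Leaving out 1 library in turn gave 289 (without V2504) to 620 (without V2523) calls in all, 165 to 343 higher and 123 (without V2530) to 339 lower, with 124 lower without V2504. Of 116 called named genes, 112 kept their sign under every alternative that gave a value. The call was lost with the sign kept for 6 with DESeq2, 8 with the length offset, 18 with library size, 33 with limma, 13 with no filter, 27 in the fit of 16 libraries and 0 with DESeq2's size factors. A further 4 called genes turned negative with DESeq2 (Fgl1, Hpx, Tspan8 and Atp2a1), and 1 with limma (Hpx), and so lost their call as higher. Depth limits genes of a few counts, such as Cyp1a1. No paired analysis was possible because mouse numbers are not shared between the groups.

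Over the fits without 1 library, log2 fold changes turned negative without V2523, the lowest value given, and had the highest value given second, for Ambp (-3.37 and 2.91), Apoa2 (-3.16 and 0.61), Fga (-3.02 and 2.12), Fgb (-3.65 and 2.35), Fgg (-3.54 and 2.53), Fgl1 (-0.36 and 4.30), Hpx (-2.52 and 4.14), Mup20 (-4.77 and 1.37), Serpina1b (-1.73 and 1.69), Trf (-0.59 and 0.89), Tspan8 (-0.34 and 4.30) and Ttpa (-1.73 and 0.67). Without V2523 and V2532 they were -4.23 for Ambp, -3.79 for Apoa2, -3.61 for Fga, -4.26 for Fgb, -4.49 for Fgg, -0.45 for Fgl1, -2.80 for Hpx, -5.48 for Mup20, -1.94 for Serpina1b, -0.46 for Tspan8, -1.69 for Ttpa and -0.88 for Atp2a1. DESeq2, which replaces outlying counts, gave -3.53 for Ambp, -3.70 for Fgg, -0.34 for Fgl1, -2.55 for Hpx, -0.59 for Trf, -0.36 for Tspan8, -1.68 for Ttpa and -0.73 for Atp2a1. Atp2a1 was at -0.81 without V2532 and up to 3.37 in the other such fits, and Hpx at -0.18 with limma. Each of these genes is at its highest vehicle level in the library left out.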

Other observations

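Values of 8 further genes are given as a description only. They were picked after their values were seen, for a call kept in each of the 16 leave-one-out fits, and stand for no group of genes. Adcy1, an adenylyl cyclase, was at -1.40 on the log2 scale (edgeR, adjusted p 5.57e-04, SE 0.24), and the G protein subunits Gng7 and Gnb3 had -1.36 (adjusted p 0.00380, SE 0.28) and -1.30 (adjusted p 0.00118, SE 0.24). Htr7, a serotonin receptor, was at -1.17 (adjusted p 0.00832, SE 0.26) and Rgs2, which shortens G protein signals, at -0.90 (adjusted p 0.00133, SE 0.17). Higher were Pde11a, a phosphodiesterase, at 1.09 (adjusted p 0.00256, SE 0.22), and Adcyap1r1, the PACAP receptor, at 0.55 (adjusted p 0.00247, SE 0.11). Dio2, which activates thyroid hormone, rose by 1.68 (adjusted p 0.00529, SE 0.36), from 0.407 to 1.26 CPM (median 0.749) to 1.02 to 6.58 CPM (median 1.86).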
